A study of Mus musculus with 8 samples.

Results

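A set of 34 genes of the blood vessel lining was followed in sorted mouse kidney tubules. Its members are 13 common endothelial markers and 21 further genes of vessel junctions, receptors, transcription factors and secreted proteins. Each gene was read by the probe set with exactly 1 symbol and the highest mean log2 value over the arrays, and all 34 of 34 were measured, out of 18782 genes. Differences of Ptprb, Emcn, Tek, Pecam1 and Heg1 in these same arrays were known when the list was drawn, so counts and medians over it are descriptions. The question put was whether genes beyond the common markers are lower too, so lower common markers were taken as given.

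The samples were distal convoluted tubules (DCT), the nephron segment that reabsorbs sodium chloride through a thiazide-sensitive cotransporter, on 8 arrays. A total of 4 arrays came from TBC1D4 knockout mice and 4 from TBC1D4 wild-type mice. Both genotypes had been crossed with PV-EGFPwt/tg mice, so every animal carried EGFP driven by the parvalbumin promoter, and all were male, of strain C57/Bl6 and 8 weeks old. Fluorescent tubules were picked on a large-particle sorter (COPAS), which takes pieces of tubule rather than single cells, and the samples also gave signal for genes of other cell types. The labels do not say that each array is a separate animal, so a p-value here measures the spread between these arrays. The labels do not state how the knockout was made or in which tissues it acts.

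Endothelial cells line every capillary of the kidney. They are held together by VE-cadherin and other junction proteins, kept alive by VEGF and angiopoietin signals from neighbouring cells, and specified by ETS and SOX transcription factors. In the kidney, glomerular capillaries have open fenestrae and express Ehd3 and much Kdr, whereas the peritubular capillaries that wrap the tubules close their fenestrae with diaphragms of the protein encoded by Plvap. Healthy tubule epithelium does not express most of these genes.

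ETS factors bind DNA with a GGAA core, and many endothelial promoters are known to carry ETS sites, so the promoters of the members with the largest differences are shown. RefSeq promoter windows (GRCm38.p6) were matched for 16 of the 34 genes, in 20 windows since a gene can have several start sites. Of the 10 members with the largest differences, 5 had a window: Emcn at chr3:137340828-137341077 (plus strand), Eng at chr2:32646345-32646594 (plus), Heg1 at chr16:33684216-33684465 (plus), Tek at chr4:94739039-94739288 (plus) and Flt1 at chr5:147726012-147726261 (minus). Each window is the 250 bases before the start, written 5′ to 3′ on the gene's strand, with CAGGAA or its reverse complement TTCCTG in capitals.
Emcn: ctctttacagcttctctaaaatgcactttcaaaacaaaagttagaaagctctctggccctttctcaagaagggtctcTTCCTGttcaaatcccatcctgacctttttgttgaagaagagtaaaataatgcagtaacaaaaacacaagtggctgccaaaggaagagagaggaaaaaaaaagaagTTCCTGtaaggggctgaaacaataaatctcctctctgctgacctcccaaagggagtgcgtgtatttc
Eng: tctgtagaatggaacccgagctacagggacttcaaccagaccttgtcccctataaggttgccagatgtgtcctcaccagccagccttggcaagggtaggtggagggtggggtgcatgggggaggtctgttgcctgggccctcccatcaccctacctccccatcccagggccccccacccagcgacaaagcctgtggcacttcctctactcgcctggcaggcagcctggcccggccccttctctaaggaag
Heg1: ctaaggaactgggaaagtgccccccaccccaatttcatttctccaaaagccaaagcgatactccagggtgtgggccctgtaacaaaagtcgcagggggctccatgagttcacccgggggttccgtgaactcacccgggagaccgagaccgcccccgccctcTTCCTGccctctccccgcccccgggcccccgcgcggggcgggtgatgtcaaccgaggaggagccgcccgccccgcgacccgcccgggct
Tek: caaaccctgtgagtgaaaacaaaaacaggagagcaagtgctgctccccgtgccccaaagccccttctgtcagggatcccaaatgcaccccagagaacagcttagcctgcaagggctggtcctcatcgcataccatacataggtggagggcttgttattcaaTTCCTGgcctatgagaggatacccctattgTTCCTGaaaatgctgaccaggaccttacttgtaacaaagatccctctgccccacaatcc
Flt1: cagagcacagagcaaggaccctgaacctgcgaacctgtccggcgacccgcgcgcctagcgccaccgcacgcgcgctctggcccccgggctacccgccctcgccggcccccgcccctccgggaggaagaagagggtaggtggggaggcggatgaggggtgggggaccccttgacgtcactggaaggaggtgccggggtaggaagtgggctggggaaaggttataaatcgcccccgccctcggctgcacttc
The Emcn and Tek windows held 2 such matches each, the Heg1 window 1, and the Eng and Flt1 windows 0. Searched on both strands, CAGGAA stood before 11 of the 16 member genes (68.8%) and before 28.3% of all 27025 genes in the table. The shorter core GGAA, which CAGGAA contains, stood before 15 of 16 (93.8%) and 94.2% of all. The SOX letters ACAAT stood before 6 of 16 (37.5%) and 30.9% of all, and the long ETS form ACCGGAAGT before 0 of 16 and 0.892% of all. These are matches of letters, not measured binding sites.

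The arrays matched their labels at Tbc1d4, with intensities of 4.64 to 6.59 in the TBC1D4-deficient and 95.6 to 122.8 in the wild-type arrays. Markers of the DCT were bright and alike in both genotypes, among them Slc12a3, the sodium chloride cotransporter, at 2797 to 3021, and Pvalb at 762.3 to 922.5. Their 12-gene list had 6 genes below and 6 above 0. TBC1D4-deficient replicate 1 stood apart from the other arrays in proximal tubule genes, and was the lowest array in 5 of 11 cell type lists (proximal tubule, thick ascending limb, fibroblast, podocyte, and mesangial, pericyte and smooth muscle genes). Its mean level of 18 proximal tubule genes, with every gene expressed relative to its own 8-array mean, was -1.05 on the log2 scale, against -0.57 to 0.72 in the other 7 arrays. Counts over the endothelial genes and their groups are therefore also given without it.

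Most of the endothelial genes lay lower in the TBC1D4-deficient arrays, by small amounts, and none passed the test. The log2 difference (TBC1D4-deficient minus wild-type) was below 0 for 29 of 34 genes, where 50.4% of all genes were below 0. Its median was -0.069, with a range from -0.54 to 0.14, and the median over all genes was -0.00074. By limma with Benjamini-Hochberg adjustment over 23039 probe sets, 0 of 34 passed at 0.05 (adjusted p = 0.9999 for each), and 0.00434% of all probe sets did. An unadjusted limma p below 0.05 was found for 9 of the 34, all of them lower, against 1.54% of all genes, with 0 higher against 1.45%. Those 9 were Ptprb, Heg1, Emcn, Tek, Pecam1, Flt1, Esam, Tie1 and Plvap. All 4 TBC1D4-deficient values lay below all 4 wild-type values for 3 genes, Ptprb, Heg1 and Tek, and such a separation was seen in 0.99% of all genes. The opposite separation was seen for 0 of 34 and for 0.932% of all genes. The 95% interval of the difference stayed inside 1.5-fold for 29 of the 34, and for 18307 of all 18782 genes, a larger share. Without the 5 genes whose values had been seen earlier, 24 of 29 were below 0, with a median of -0.062. Of these 29, 4 had an unadjusted limma p below 0.05 and 0 were separated. Those 29 still held common markers, which were taken to be lower when the question was put. The genes beyond the common markers are given apart below. Without TBC1D4-deficient replicate 1 the count over the whole list was 22 of 34 and the median -0.043. That count includes the 5 genes seen earlier, all still below 0 (Ptprb -0.43, Emcn -0.36, Heg1 -0.30, Pecam1 -0.25 and Tek -0.21). In these bulk samples, fewer endothelial cells and less RNA per cell cannot be told apart.

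**Figure D1:**
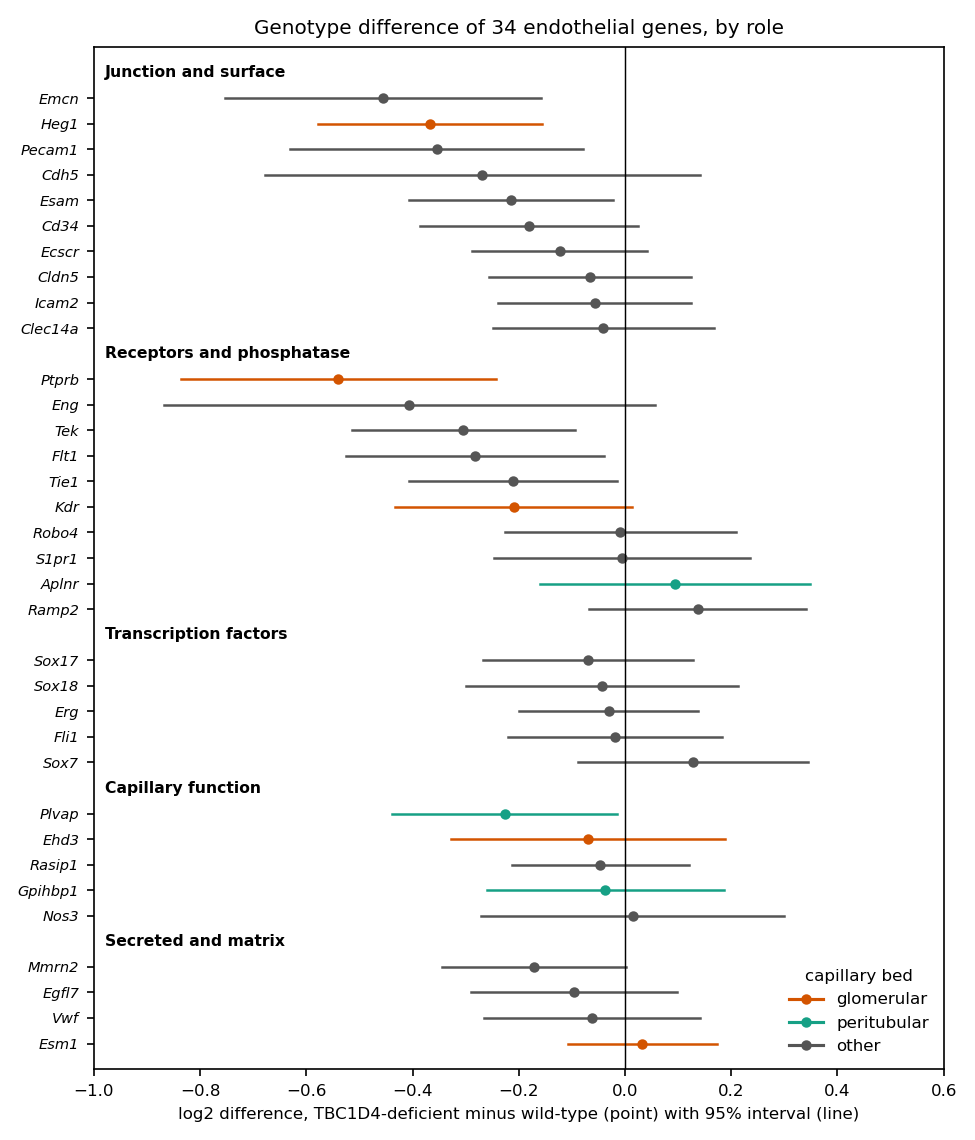
Log2 difference (TBC1D4-deficient minus wild-type, x axis) of the 34 endothelial genes, grouped by role, with points for the estimate and lines for the 95% interval of the limma fit; colour marks glomerular, peritubular and other genes. Of the 34 points 29 lie left of 0, with the largest differences among junction genes and receptors, while 4 of 5 transcription factors lie between -0.07 and 0. All transcription factors except Sox18 are dimmer than the median of all probe sets.

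The larger differences were mostly those of common markers. All 13 of them (Pecam1, Cdh5, Kdr, Flt1, Tek, Tie1, Eng, Emcn, Plvap, Vwf, Cd34, Ehd3 and Ptprb) were below 0, with a median of -0.27. Of these, 7 had an unadjusted limma p below 0.05, where 1.54% of all genes were lower at that level. The 21 genes beyond them had 16 below and 5 above 0, a median of -0.041 and 2 with an unadjusted limma p below 0.05, Heg1 and Esam. Without TBC1D4-deficient replicate 1, 9 of these 21 were below 0 and the median was 0.0029, while all 13 common markers were still below 0. The split into common and further genes was made with the values of Ptprb, Emcn, Tek and Pecam1 known, and no test compares the 2 sets.

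Among receptors, 8 of 10 were below 0, with a median of -0.21, and 0 passed. Without TBC1D4-deficient replicate 1, 6 of 10 were below 0 (median -0.17). Ptprb encodes VE-PTP, the phosphatase that quiets the angiopoietin receptor and VE-cadherin, and its deposited linear intensities, the scale of all array values below, were 9.3, 13.74, 14.39 and 10.51 in TBC1D4-deficient replicates 1 to 4 and 18.4, 15.52, 17.29 and 17.49 in wild-type replicates 1 to 4. The groups did not overlap, and replicates 1 and 4 of the TBC1D4-deficient arrays were the lowest. On the log2 scale the means were 3.56 ± 0.30 and 4.10 ± 0.10 (SD, n = 4 each), a difference of -0.54 (95% interval -0.84 to -0.24), or 1.45-fold. It was -0.43 without TBC1D4-deficient replicate 1. Tek, the angiopoietin receptor that Ptprb acts on, read 6.19, 8.63, 7.39 and 7.84 in the TBC1D4-deficient and 9.26, 8.87, 9.59 and 9.14 in the wild-type arrays. These groups did not overlap either, though TBC1D4-deficient replicate 2 came close to wild-type replicate 2, and the difference was -0.30 (-0.51 to -0.09). Tie1, the partner receptor of Tek, stood at -0.21 (-0.41 to -0.015).

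Flt1, the VEGF receptor that acts largely as a decoy, read 11.4, 11.47, 14.92 and 12.33 in the TBC1D4-deficient and 17.72, 14.45, 15.46 and 13.3 in the wild-type arrays. The groups overlapped in replicate 3 of the former and replicates 2 and 4 of the latter, with a difference of -0.28 (-0.53 to -0.039). Eng, a TGF-beta coreceptor, read 10.77, 18.89, 21.94 and 15.43 in the TBC1D4-deficient and 21.61, 16.35, 24.92 and 24.14 in the wild-type arrays. Its difference of -0.41 had an interval that included 0 (-0.87 to 0.056), and without TBC1D4-deficient replicate 1 it was -0.21. Eng stood at -0.13 in the arrays whose descriptions open with the numbers 5 to 8 and at -0.68 in those numbered 9 to 12, sets of 2 arrays per genotype whose meaning is not stated. TBC1D4-deficient replicate 1 belongs to the set 9 to 12, so a lower value there is not separate from that array. Robo4, S1pr1 and Ramp2 stood near or above 0. Robo4, which stabilises vessels, was at -0.0086 and S1pr1, the sphingosine phosphate receptor, at -0.0055. Ramp2, which pairs with Calcrl to form the adrenomedullin receptor, was at 0.14 (-0.067 to 0.34), the highest of the list.

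All 10 junction and surface genes were below 0, with a median of -0.20, and 0 passed. The count was 9 of 10 without TBC1D4-deficient replicate 1 (median -0.15). Emcn, an endothelial sialomucin, read 26.96, 40.06, 38.33 and 28.76 in the TBC1D4-deficient and 48.22, 39.76, 44.27 and 49.63 in the wild-type arrays. Only TBC1D4-deficient replicate 2 and wild-type replicate 2 crossed, and the difference was -0.46 (-0.75 to -0.16), or 1.37-fold. Heg1, a receptor that anchors a junction complex, read 8.41, 9.72, 10.86 and 9.99 in the TBC1D4-deficient and 14.2, 11.6, 12.8 and 11.62 in the wild-type arrays, with no overlap. Its difference was -0.37 (-0.58 to -0.16), and a second, dimmer probe set gave -0.15 with overlapping groups. Pecam1, the adhesion protein CD31, read 6.68, 8.9, 9.22 and 8.67 in the TBC1D4-deficient and 10.66, 8.69, 11.55 and 11.89 in the wild-type arrays. Wild-type replicate 2 lay among the TBC1D4-deficient arrays, and the difference was -0.35 (-0.63 to -0.078).

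Cdh5, which encodes VE-cadherin, read 7.42, 12.45, 9.72 and 12.91 in the TBC1D4-deficient and 10.43, 10.92, 15.5 and 13.84 in the wild-type arrays. These groups overlapped widely, with a difference of -0.27 (-0.68 to 0.14) that was -0.11 without TBC1D4-deficient replicate 1. Esam, another junction adhesion protein, read 9.05, 9.29, 10.39 and 9.79 in the TBC1D4-deficient and 11.23, 10.39, 13.02 and 10.21 in the wild-type arrays, a difference of -0.21 (-0.41 to -0.022). TBC1D4-deficient replicate 3 was level with wild-type replicate 2 and above wild-type replicate 4. The remaining members of the group were smaller in difference. Cd34 was at -0.18 and Ecscr at -0.12. Cldn5, the tight junction protein of endothelium, was at -0.066, with Icam2 at -0.057 and Clec14a at -0.041.

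**Figure D2:**
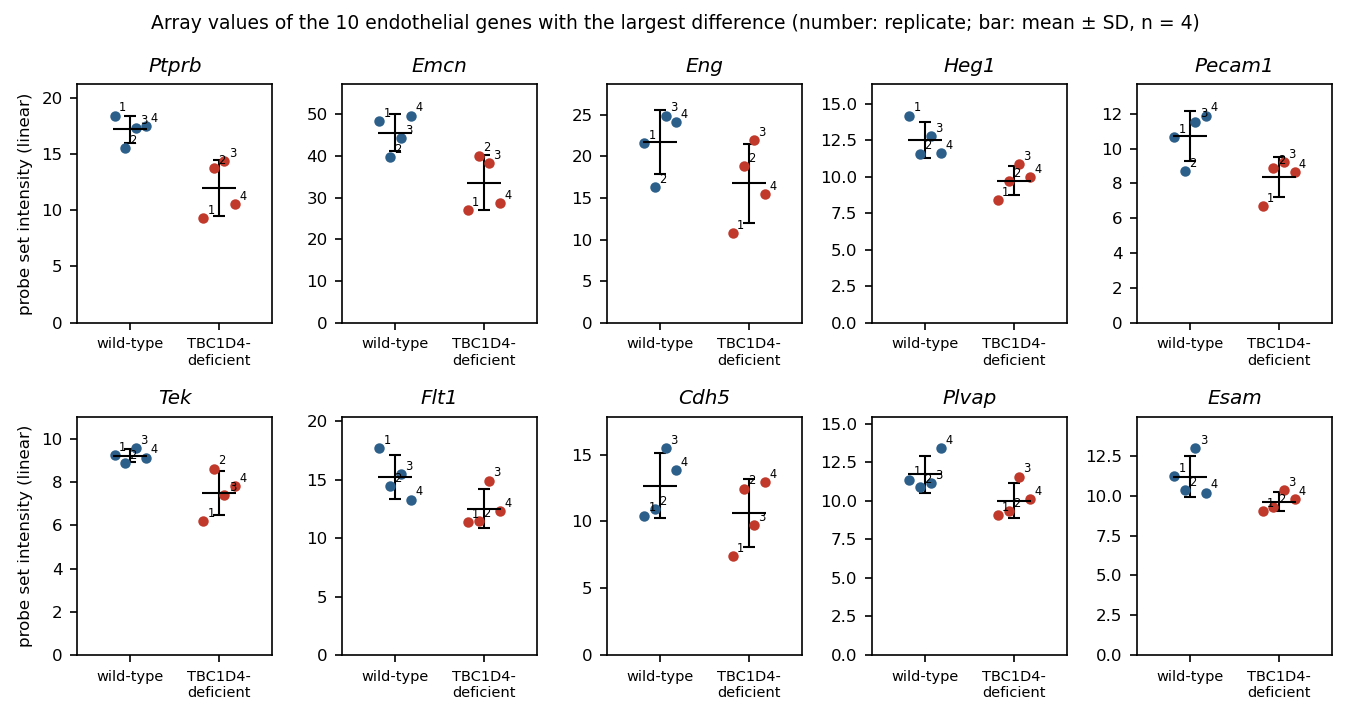
Deposited probe set intensity (y axis, linear, from 0) in each array for the 10 endothelial genes with the largest difference; points carry the replicate number and bars give the mean ± SD (n = 4 arrays per genotype). TBC1D4-deficient replicate 1 is the lowest array in 10 of the 10 genes, and the groups are fully apart for Ptprb, Heg1 and Tek.

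Glomerular and peritubular genes were taken apart. The 5 glomerular members (Ehd3, Kdr, Esm1, Heg1 and Ptprb) had 4 below 0 and a median of -0.21, and the 3 peritubular members (Plvap, Aplnr and Gpihbp1) had 2 below 0 and a median of -0.037. That glomerular median rests on a list which includes Ptprb and Heg1, whose values were known, and without them the 3 others had a median of -0.069. The mean relative level of those 3 was -0.12 to 0.066 in the TBC1D4-deficient and -0.081 to 0.085 in the wild-type arrays, so the groups overlapped. Without TBC1D4-deficient replicate 1, 4 of 5 glomerular members (median -0.18) and 1 of 3 peritubular members were below 0. The peritubular median turned positive without TBC1D4-deficient replicate 1 (0.019), without wild-type replicate 3 (0.039) and with the proximal tubule level as a covariate (0.0002). The difference between the beds was not tested.

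Ehd3, an endocytic recycling protein used as a marker of glomerular endothelium, read 27.81, 30.5, 29.94 and 28.88 in the TBC1D4-deficient and 24.92, 38.65, 29.07 and 31.73 in the wild-type arrays. The TBC1D4-deficient values lay inside the wild-type range, and the difference was -0.069 (-0.33 to 0.19). Kdr, the main VEGF receptor, read 7.41, 8.21, 8.98 and 6.81 in the TBC1D4-deficient and 9.19, 7.83, 9.85 and 9.4 in the wild-type arrays, a difference of -0.21 (-0.43 to 0.014) with overlap at wild-type replicate 2. Esm1, which encodes endocan, was among the dimmest members, at 4.02 to 4.47 in the TBC1D4-deficient and 3.87 to 4.37 in the wild-type arrays, and its difference was 0.033 (-0.11 to 0.17). Ehd3, Kdr and Esm1, the 3 glomerular members other than Ptprb and Heg1, all had overlapping groups. Ehd3 and Kdr are themselves common markers. Of 5 other glomerular endothelial genes (Lpl, Plat, Mapt, Tbx3 and Gata5), some of which other kidney cells also express, 2 were below and 3 above 0, with a median of 0.019, and Gata5 had an unadjusted limma p below 0.05, at 0.23.

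Plvap, the diaphragm protein of peritubular capillaries, read 9.08, 9.32, 11.58 and 10.09 in the TBC1D4-deficient and 11.38, 10.87, 11.15 and 13.44 in the wild-type arrays. TBC1D4-deficient replicate 3 lay above 3 of the wild-type arrays, and the difference was -0.23 (-0.44 to -0.014). It was -0.43 in arrays 9 to 12, which include TBC1D4-deficient replicate 1, and -0.026 in arrays 5 to 8. Gpihbp1, which carries lipoprotein lipase to the capillary lumen, read 8.05, 8.75, 9.42 and 10.09 in the TBC1D4-deficient and 8.57, 9.59, 10.87 and 8.29 in the wild-type arrays, a difference of -0.037 (-0.26 to 0.19). Aplnr, the apelin receptor, read 4.93, 5.07, 6.46 and 6.79 in the TBC1D4-deficient and 4.76, 5.57, 5.62 and 5.67 in the wild-type arrays, and stood at 0.095 (-0.16 to 0.35). The groups overlapped for both genes. Of 3 other genes known from peritubular endothelium, Igfbp3, Igfbp5 and Npr3, all 3 were below 0, with a median of -0.091 and 0 with an unadjusted limma p below 0.05.

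Endothelial transcription factors stood close to 0, but all except Sox18 were dimmer than the median of all probe sets. The 18 members below that level had a median difference of -0.036. Of 5, 4 were below 0, with a median of -0.031 and 0 with an unadjusted limma p below 0.05. All 5 intervals lay inside 1.5-fold, as did those of 18307 of all 18782 genes. Without TBC1D4-deficient replicate 1, only Sox17 (-0.022) was below 0, 1 of 5, and the median was 0.045. Among the SOX factors of vessel development, Sox17 stood at -0.07, Sox18 at -0.043 and Sox7 at 0.13, and Sox7 read -0.041 in arrays 5 to 8 and 0.30 in arrays 9 to 12. The ETS factors Erg and Fli1 stood at -0.031 (-0.20 to 0.14) and -0.020 (-0.22 to 0.18). Of 4 secreted or matrix genes, 3 were below 0, with that replicate and without it. Mmrn2, a matrix protein of vessels, was at -0.17 (-0.34 to 0.0013), Egfl7, a secreted endothelial protein, at -0.096 and Vwf, the clotting factor stored in large-vessel endothelium, at -0.062. In the capillary function group, with Plvap, Ehd3 and Gpihbp1 above, 4 of 5 were below 0, while Nos3, the endothelial nitric oxide synthase, was at 0.014 and Rasip1, needed for vessel lumens, at -0.046. In this group 3 of 5 were below 0 without TBC1D4-deficient replicate 1.

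Most of the larger differences were in brighter members, though Ehd3, among the brightest, stood at -0.069. The 34 probe sets had mean log2 values of 1.73 to 5.27, and intensities from 2.86 to 49.6, beside a table median of 3.13 on the log2 scale. Of the 16 genes at or above that median, 16 were below 0, with a median difference of -0.22; of the 18 dimmer genes, 13 were, with a median of -0.036. Tek and Kdr were the dimmer genes with differences beyond -0.20. Over all genes the shares below 0 were 46.6% above and 54.9% below the median level. Without detection calls in the deposited table, it is not known which of the dim probe sets were above background. The common markers were the brighter ones, 10 of 13 above the median against 6 of 21 of the further genes. Those 6 (Heg1, Esam, Ecscr, Egfl7, Sox18 and Gpihbp1) had a median of -0.11.

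**Figure D3:**
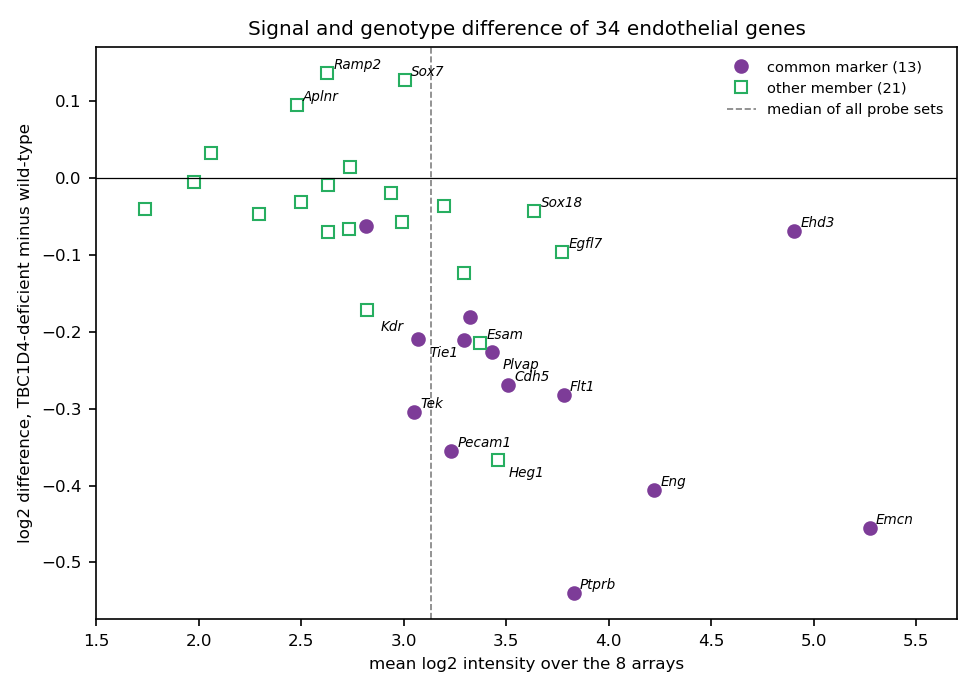
Log2 difference (TBC1D4-deficient minus wild-type, y axis) against the mean log2 intensity over the 8 arrays (x axis) for the 34 genes, with the 13 common markers as filled circles and the 21 others as open squares. The 16 genes right of the dashed line, the median of all probe sets at 3.13, all lie below 0, and the genes above 0 are all left of it.

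By array, the low values were gathered in TBC1D4-deficient replicate 1. That array had the lowest value of the 8 for 20 of the 34 genes, whereas it was the lowest for 13.8% of all genes. It lay below every wild-type array for 24 of 34, and replicates 2, 3 and 4 did so for 12, 8 and 15, beside 17.5% to 19.8% of all genes in the 4 arrays. Replicate 3 was below the wild-type mean for 18 of the 34. Wild-type replicate 3 held the highest value for 15 genes. The mean relative level of the 34 genes was -0.23, -0.023, 0.042 and -0.055 in TBC1D4-deficient replicates 1 to 4 and 0.049, 0.021, 0.14 and 0.054 in wild-type replicates 1 to 4, so that TBC1D4-deficient replicate 3 lay above wild-type replicate 2. The spread was larger in the TBC1D4-deficient group for 24 of the 34, against 47.7% of all genes, with median SDs of 0.15 and 0.13. By description number, in arrays 5 to 8 the count below 0 was 26 of 34 (median -0.081), and in arrays 9 to 12 it was 28 of 34 (median -0.12). Arrays 9 to 12 include TBC1D4-deficient replicate 1.

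Further endothelial genes outside the 34 gave a weaker picture. Of 37 measured, 23 were below and 14 above 0, with a median of -0.037, where 50.4% of all genes were below 0. An unadjusted limma p below 0.05 was found for 6 lower and 1 higher, against 1.54% and 1.45% of all genes, and 0 passed after adjustment. Those 6 were Adgrl4, Acvrl1, Gimap4, Calcrl, Jam2 and Fabp4, and Tmem204 was the higher one. Adgrl4, an endothelial adhesion receptor, read 6.9, 9.38, 8.28 and 9.76 in the TBC1D4-deficient and 12.95, 10.24, 12.64 and 10.48 in the wild-type arrays. Its groups did not overlap, a separation seen in 0.99% of all genes, and the difference was -0.44 (-0.71 to -0.17). Acvrl1, the receptor kinase that works with Eng, stood at -0.26 (-0.48 to -0.038) and Tm4sf1 at -0.29 (-0.61 to 0.031). Adgrf5, which intercalated cells of the kidney also express, had the largest difference at -0.51, with an interval of -1.15 to 0.14. Ephb4 (131.3 to 154), Cavin2 (89.5 to 122.5) and Nrp1 (84.0 to 111) read above every value of the 34 members, at most 49.6. Their differences were 0.059, -0.015 and 0.11, and which cells gave their signal was not tested. Without TBC1D4-deficient replicate 1, 16 of the 37 were below 0 and the median was 0.033.

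Ligands of endothelial receptors, several of them made by tubules, lay mostly above 0. Of 12 measured, 10 were above 0, with a median of 0.031 and 0 with an unadjusted limma p below 0.05. The mean relative level of the list was highest in TBC1D4-deficient replicate 1, at 0.094. It was -0.054 to 0.034 in replicates 2 to 4 of that genotype and -0.061 to 0.0098 in the wild-type arrays, so the groups overlapped. Some differences above 0 were very small, such as Angpt2 at 0.0060 and Gdf2 at 0.0054, both dimmer than the table median. Vegfa, the main endothelial growth factor and a product of tubule epithelium, read 398.1 to 462.8 in the TBC1D4-deficient and 398.4 to 451.5 in the wild-type arrays (difference 0.020, -0.14 to 0.18). Angpt1, the ligand of Tek, stood at 0.17 (-0.26 to 0.60). Arterial genes outside the list had 6 of 9 below 0 and a median of -0.021, and lymphatic genes 4 of 5 and -0.028. Among the lymphatic genes only Prox1 was bright, at 90.8 to 116.3, and which cells gave its signal was not tested. Lyve1, Flt4, Mmrn1 and Reln were dimmer than the table median.

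Marker lists of other cells of the vessel wall and glomerulus also lay mostly below 0, and the mesangial, pericyte and smooth muscle list had a median as low as that of the 34 endothelial genes. The podocyte list, which shares Cldn5 with the endothelial genes, had 8 of 11 below 0 and a median of -0.037. Its array means ran from -0.10 to 0.023 in the TBC1D4-deficient group and from 0.0033 to 0.061 in the wild-type group. The podocyte-defining genes Nphs1 and Wt1 were dim, with log2 means of 2.71 to 2.72 and 2.70 to 2.72, below the table median, and differed by 0.014 and 0.021. The brightest genes of that list, Npnt, Podxl and Clic5, which other kidney cells express as well, stood at 0.037, -0.043 and -0.26. Mesangial, pericyte and smooth muscle genes had 8 of 11 below 0 and a median of -0.071, with array means of -0.14 to 0.030 in the TBC1D4-deficient and -0.0063 to 0.095 in the wild-type group. Rgs5, a pericyte marker, was the 1 gene of that list with an unadjusted limma p below 0.05, at -0.22 (-0.40 to -0.043). Over all genes, 1.54% were lower at that level. Acta2, the smooth muscle actin, stood at -0.22 (-0.50 to 0.066). Gata3 and Mylk, with Acta2 the brightest of that list, stood at -0.025 and 0.015.

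Proximal tubule genes were lower for 18 of 18 measured, with a median of -0.30 and 0 with an unadjusted limma p below 0.05. Their array means were -1.05, 0.23, 0.089 and 0.13 in TBC1D4-deficient replicates 1 to 4 and -0.57, -0.25, 0.72 and 0.72 in wild-type replicates 1 to 4, so the groups overlapped. Within the TBC1D4-deficient group only replicate 1 lay below 0, and it alone lay below every wild-type array. The other TBC1D4-deficient arrays, at 0.089 to 0.23, lay inside the wild-type range, above -0.57 and -0.25 and below 0.72. The lower proximal tubule level is therefore not separate from TBC1D4-deficient replicate 1, and the proximal tubule count was not taken without that array. Slc34a1, the phosphate transporter of that segment, read 403.5 to 933.4 in the TBC1D4-deficient and 551.9 to 1166 in the wild-type arrays. The lowest array was the same for the proximal and the endothelial genes. Wild-type replicate 3 was the highest for both, though nearly level with wild-type replicate 4 for the proximal genes. Wild-type replicate 1, low for the proximal genes, had an endothelial mean of 0.049. With the proximal tubule level as a covariate, 26 of the 34 endothelial genes were below 0, with a median of -0.063. Intercalated cell genes had 6 of 8 below 0 (median -0.21) and principal cell genes 6 of 6 (median -0.19). Intercalated array means were -0.28 to 0.33 in the TBC1D4-deficient and -0.23 to 0.43 in the wild-type arrays. Principal cell means were -0.36 to 0.044 and -0.15 to 0.32. Both lists overlapped between genotypes, and TBC1D4-deficient replicate 3 was the lowest array in each. The part of these cell types, and of pericytes, in the endothelial result was not tested.

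**Figure D4:**
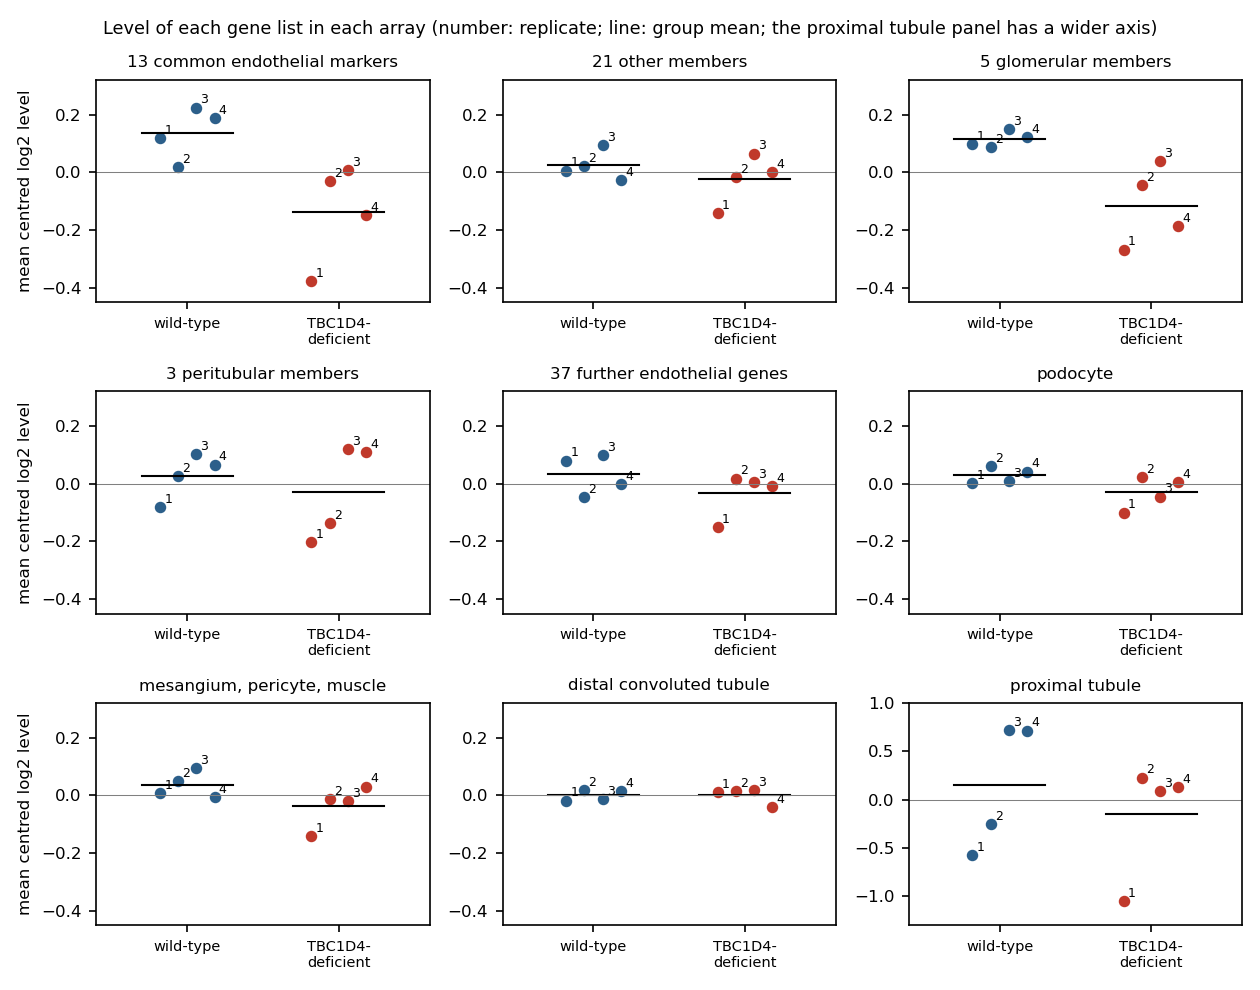
Mean centred log2 level (y axis) of 9 gene lists in each array, by genotype, with replicate numbers at the points and lines for group means; the proximal tubule panel has a wider axis. The common markers span -0.38 to 0.0063 in the TBC1D4-deficient and 0.018 to 0.22 in the wild-type arrays, and the glomerular members -0.27 to 0.039 and 0.088 to 0.15, both lists holding members whose values were known when they were drawn. The 21 other members and the peritubular members overlap.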

How the data were processed

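RNA from sorted DCT (100 ng per sample, biotin label) was measured on 8 arrays, 4 per genotype, grouped by sample title. For each of 28371 probe sets the authors deposited a linear intensity, and the submitters' processing notes name Affymetrix Power Tools. No source used here states the summarisation or normalization. Column medians were 8.41 to 9.03.

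Log2 was taken with no pseudocount, filter or further normalization. A limma model (version 3.58.1, R 4.3.3) with genotype as its only term, moderated by eBayes, was fitted to the 23039 probe sets that have a symbol. Tests were two-sided, adjusted by Benjamini-Hochberg at 0.05, with 95% intervals. Of all probe sets, 21158 had exactly 1 symbol. The number of arrays limits the precision. Members and gene lists were chosen with earlier results of these data known. Array values are given in full for the 10 members with the largest difference and for the glomerular and peritubular members. Of the 37 further endothelial genes, the 4 with the largest difference are described. Those with an unadjusted p below 0.05 were named after their values were seen, as were Rgs5, Ephb4, Cavin2, Nrp1 and Prox1. Alternatives were left-out arrays, covariates, normalizations, filters, a pseudocount, array weights, a trended robust prior, probe set rules and array subsets.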

Additional observations from a re-analysis of the deposited data

Results flagged for a closer look

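Among the 34 endothelial genes, 3 had 1 array far from the other 3 of its genotype, out of 68 groups examined, where chance alone gives about 1 in 20 groups. Icam2, an adhesion protein, had a log2 value of 3.18 in TBC1D4-deficient replicate 3 and 2.89 to 2.90 in the others. Aplnr, the apelin receptor, had 2.25 in wild-type replicate 1, an intensity of 4.76 beside 5.57 to 5.67 in the others. Sox7, a transcription factor, had 3.36 in TBC1D4-deficient replicate 2, an intensity of 10.24 beside 7.67 to 8.02 in the others. The mean level of the 37 further endothelial genes was -0.15 in TBC1D4-deficient replicate 1 and -0.0094 to 0.018 in the other 3 arrays of that genotype.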

How the results depend on the processing

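A total of 23 alternatives were run, and in each of them 1 probe set, Tbc1d4, passed the threshold (log2 difference -4.35 to -2.52). No endothelial gene passed in any (lowest limma adjusted p = 0.9972). The count below 0 was 22 to 29 of 34 when 1 array was left out, and the median -0.12 to -0.043. With only probe sets above the median level, 16 genes remained and all 16 were below 0, with a median of -0.22; the median was -0.37 for 3 glomerular genes and -0.21 for 11 members in neither bed, and 8 of 17 further endothelial genes were below 0. Those 17 included Ephb4, Cavin2 and Nrp1, each brighter than all of the 34. With log2 of the value plus 16, which dampens dim genes by construction, the glomerular median was -0.072. The median of the further endothelial genes was -0.10 in arrays 9 to 12, which include TBC1D4-deficient replicate 1. It ran from -0.064 to 0.033 when 1 array was left out, the positive value being without TBC1D4-deficient replicate 1. Arrays of the same replicate number had correlations of deviations from -0.17 to 0.37. These were not compared with other pairs of arrays, so they cannot decide whether the numbers pair the samples, which the labels do not state. The replicate block is balanced over genotype and cannot move a log2 difference, so the count stayed at 29 and the median at -0.069. With each array centred on its median the count was 26, and after quantile normalization 28. Of 762 values of single endothelial genes under alternatives, 750 differed from the reported value by less than the spread between replicates. Many of the 750 could not differ. The level filters, the trended robust prior and the fit to all probe sets leave a log2 difference unchanged by construction. The same holds for the replicate block and the array number covariate, and averaging probe sets affects only the 2 genes with 2 of them. The cause of the changes was not tested.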
